A study of Mus musculus with 27 samples.

Results

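The genes described here are 10 antiviral effectors that cells switch on in response to interferon, chosen by symbol: Ifit1, Ifit2, Ifit3, Ifit3b, Mx1, Mx2, Rsad2, Cmpk2, Bst2 and Ifi44. All 10 were found among the 54752 genes of the deposited count tables, and all 10 passed the filter on low counts in every comparison. Their levels were followed across 15 mouse tumors of CT26, a colon carcinoma line of BALB/c mice that grows under the skin. Of the 27 samples in the series, 15 are RNA-seq libraries with counts, 5 per group, and the 12 m6A immunoprecipitation and input samples are not analysed here. The design set gene expression in tumors depleted of Mettl3 or Mettl14, with anti-PD-1 treatment, against that of control tumors.

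The Mettl3 KO group (n = 5) consisted of tumors from CT26 cells with a guide RNA against Mettl3. The Mettl14 KO group (n = 5) had a guide RNA against Mettl14. The genotype field of these samples reads Mettl4 KO, and the sample title was followed. The control group (n = 5) carried a control guide RNA, labelled control KO. The guides were brought in by retroviral transduction before the cells were injected into the flank with Matrigel. Only the injected cells carry the guide, and the immune and stromal cells of the BALB/c host keep both genes. Antibody was given at 200 µg (10 mg/kg) between days 11 and 23. The protocols list anti-PD-1, anti-CTLA-4 and IgG, and the series design alone ties these tumors to anti-PD-1. The labels do not tie samples to animals or clones, so every p-value speaks only to how much these libraries vary.

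Type I and type III interferons, made after foreign or misplaced nucleic acid is sensed, act through the transcription factor ISGF3, which binds interferon-stimulated response elements near the start of antiviral genes. The products act at different steps: IFIT proteins bind RNA, Mx proteins are dynamin-like GTPases that trap viral particles, and tetherin (Bst2) holds budding virions on the cell surface. Interferon-gamma, released by T and NK cells, acts through a separate receptor and induces part of the same genes. The complex of Mettl3 and Mettl14 writes the m6A mark, a methylated adenosine, into messenger RNA.

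The members lie in 5 places in the genome (mm10, GENCODE M21 annotation). The 4 Ifit genes stand within 99.3 kb of chromosome 19, from 34550694 to 34650009. Rsad2 (chr12:26442746-26456452, minus strand) and Cmpk2 (chr12:26469204-26479837, plus strand) point away from each other across 12.8 kb. Mx1 (chr16:97447035-97462907) and Mx2 (chr16:97535308-97560900) are 72.4 kb apart. Bst2 (chr8:71534255-71537456) and Ifi44 (chr3:151730922-151749960) stand alone. No exon of a member overlaps an exon of another annotated gene.

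RefSeq promoter windows, 250 bases before to 50 bases after the start of transcription in build GRCm38.p6, were found for 8 members, while Mx1 and Mx2 had no entry. The windows were searched on both strands for GAAA, any 2 bases and GAAA again, the core letters of the interferon-stimulated response element. It was present in windows of 5 members, Ifit1, Ifit3, Ifit3b, Rsad2 and Bst2, and in 1131 of the 32851 promoter windows of the table (3.44%). The windows of Ifit2, Cmpk2 and Ifi44 did not hold these letters, which says only that the exact string is not there. The 5 windows with a match are shown because they carry the sequence feature that these genes share, with the match in capitals on either strand.
Ifit1, chr19:34640639-34640938, plus strand: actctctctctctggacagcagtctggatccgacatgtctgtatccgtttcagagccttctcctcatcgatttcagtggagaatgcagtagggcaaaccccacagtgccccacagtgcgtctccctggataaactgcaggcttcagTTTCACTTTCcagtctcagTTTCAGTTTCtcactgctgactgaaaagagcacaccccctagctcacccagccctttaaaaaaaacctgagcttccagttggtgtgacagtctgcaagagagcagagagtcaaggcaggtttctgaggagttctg
Ifit3, chr19:34583279-34583578, plus strand: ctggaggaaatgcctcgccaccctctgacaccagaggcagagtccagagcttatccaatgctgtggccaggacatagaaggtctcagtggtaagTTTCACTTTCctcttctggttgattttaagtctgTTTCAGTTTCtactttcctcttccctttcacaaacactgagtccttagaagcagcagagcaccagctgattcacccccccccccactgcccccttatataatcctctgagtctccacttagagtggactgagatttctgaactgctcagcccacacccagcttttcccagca
Ifit3b, chr19:34607707-34608006, plus strand: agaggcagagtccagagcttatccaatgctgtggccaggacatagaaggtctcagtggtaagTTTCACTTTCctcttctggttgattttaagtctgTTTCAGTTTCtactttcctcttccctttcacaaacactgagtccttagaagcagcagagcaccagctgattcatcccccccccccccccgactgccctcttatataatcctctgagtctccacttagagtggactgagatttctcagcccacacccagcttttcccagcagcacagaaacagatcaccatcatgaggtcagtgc
Rsad2, chr12:26456403-26456702, minus strand: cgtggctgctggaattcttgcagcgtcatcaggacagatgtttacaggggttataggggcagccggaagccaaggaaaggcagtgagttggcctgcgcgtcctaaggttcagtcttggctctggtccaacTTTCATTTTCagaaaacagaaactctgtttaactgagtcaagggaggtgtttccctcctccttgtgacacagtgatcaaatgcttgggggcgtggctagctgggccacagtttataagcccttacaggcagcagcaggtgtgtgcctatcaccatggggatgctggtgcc
Bst2, chr8:71537423-71537722, minus strand: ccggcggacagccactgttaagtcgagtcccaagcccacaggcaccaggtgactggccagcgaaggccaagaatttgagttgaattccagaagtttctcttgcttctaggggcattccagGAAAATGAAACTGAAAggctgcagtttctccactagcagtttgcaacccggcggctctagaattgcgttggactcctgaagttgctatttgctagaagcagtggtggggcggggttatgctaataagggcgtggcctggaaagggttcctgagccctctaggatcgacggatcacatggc

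Counted from the start site, the first base of each match as printed lies at -104 and -85 in Ifit1, -156 and -122 in Ifit3, -188 and -154 in Ifit3b, -120 in Rsad2, and -130 and -124 in Bst2, where the matches overlap. Ifit3 and Ifit3b windows align over 260 bases, of which 258 are identical (99.2%), with 14 gap bases.

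The libraries differed in depth and composition. Reads counted on genes came to 4354273 to 9332032 in Mettl3 KO, 6452364 to 17022057 in Mettl14 KO and 5520340 to 20978633 in control libraries. Uniquely aligned reads that fell outside genes made up 60.2% to 78.0% in Mettl3 KO, 53.6% to 65.9% in Mettl14 KO and 44.3% to 78.6% in control libraries. Control replicate 1 stood apart from the other 4 controls, at 78.6% against 44.3% to 53.8%, and results are given with and without it where it matters. Targeted transcripts were a weak check of the labels, since a guide edits DNA and the host cells keep the gene. Mettl3 averaged 13.7 ± 1.47 CPM in Mettl3 KO tumors, against 19.4 ± 3.67 CPM in control tumors (SD, n = 5), a log2 difference of -0.56 (SE 0.15, edgeR adjusted p = 0.0545). Mettl14 averaged 61.3 ± 12.4 CPM in Mettl14 KO tumors, against 69.0 ± 11.7 CPM in control tumors (-0.21, SE 0.17, edgeR adjusted p = 0.735). Mettl14 averaged less in Mettl3 KO tumors, at 54.3 ± 16.2 CPM, and control replicate 1 had 13.2 CPM of Mettl3, inside the Mettl3 KO range of 12.4 to 16.2 CPM. Mitochondrial genes took 1.41% to 2.64% of gene reads in Mettl3 KO, 3.06% to 5.41% in Mettl14 KO and 3.53% to 8.85% in control libraries, with no overlap between Mettl3 KO and control.

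Levels are given as CPM, counts per gene put on a shared depth with TMM factors from the 15 libraries, and replicates are named 1 to 5 as in the labels. All 10 members were expressed in all 15 tumors, and each averaged more in both knockout groups than in control tumors. No member passed the edgeR quasi-likelihood test at an adjusted p of 0.05 in either knockout. In Mettl3 KO tumors the 10 log2 fold changes lay between 0.24 and 0.84 with a median of 0.45, against a median of -0.14 over all 21427 genes tested, of which 44.9% lay above 0. In Mettl14 KO tumors they lay between 0.46 and 1.23 with a median of 0.88, against -0.09 over all 21555 genes tested, of which 39.2% lay above 0. In these bulk tumors, fewer cells of a type and less RNA per cell cannot be told apart.

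**Figure D1:**
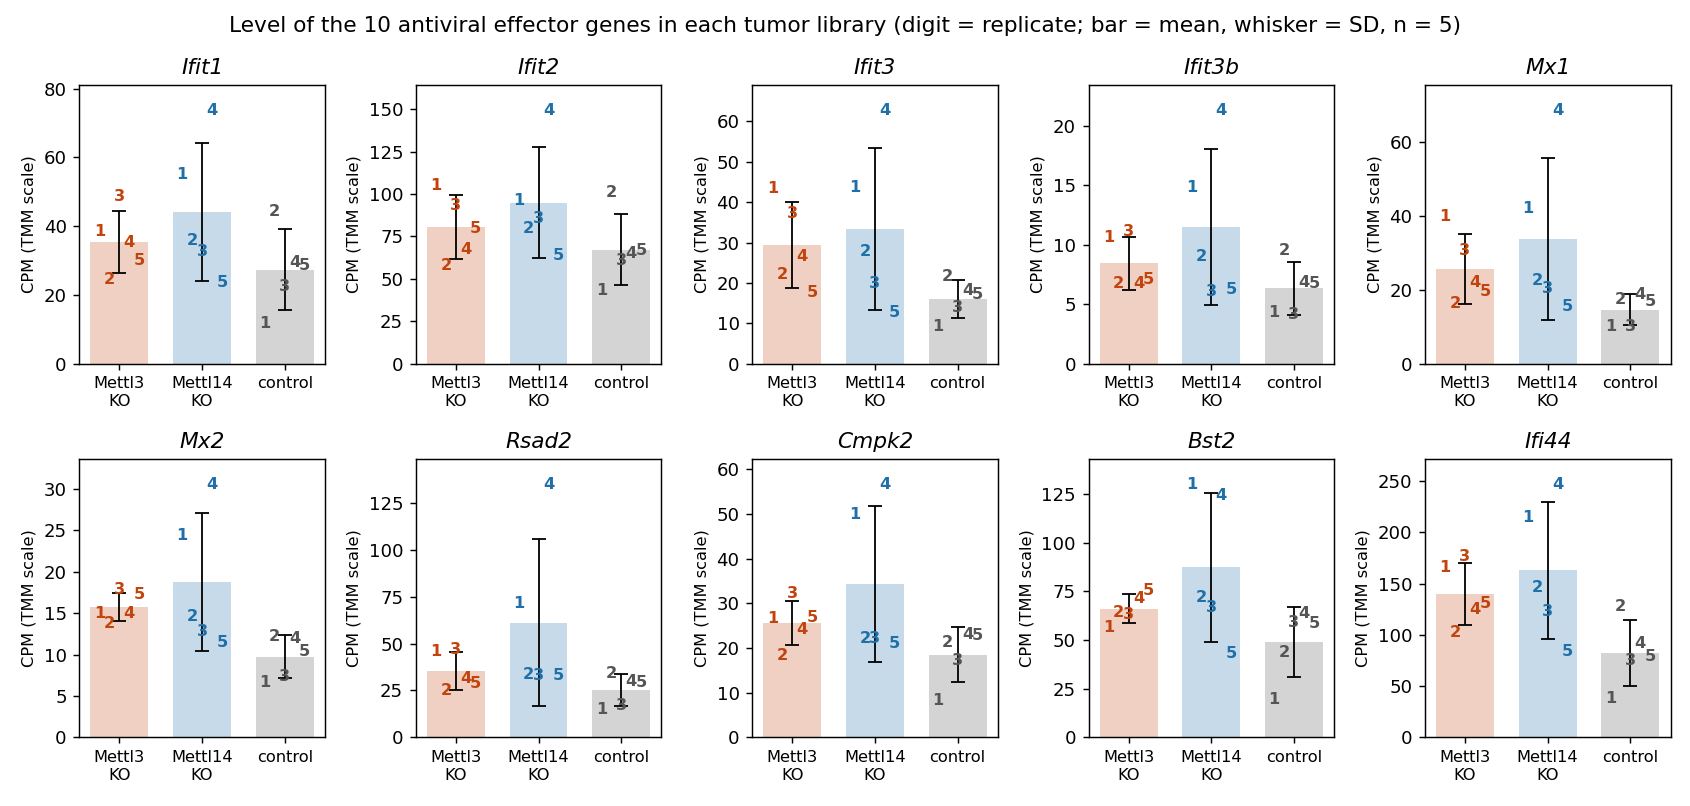
CPM of each antiviral effector gene (vertical axis, TMM scale) in Mettl3 KO, Mettl14 KO and control tumors (horizontal axis). Digits are replicates, bars are means and whiskers SD of 5 libraries. Mettl14 KO replicates 1 and 4 are the highest pair of their group in all 10 panels, and control replicate 1 is the lowest library of all in 9.

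The IFIT proteins carry tetratricopeptide repeats and bind RNA ends or partner proteins. Ifit1, which recognises viral RNA with an incompletely methylated cap, ranged from 24.6 to 48.6 CPM in Mettl3 KO, 23.5 to 73.7 CPM in Mettl14 KO and 11.8 to 44.4 CPM in control tumors. Control replicate 2 exceeded 4 of the 5 Mettl3 KO libraries. The log2 fold change of Ifit1 against control was 0.35 in Mettl3 KO (95% interval -0.27 to 0.97, edgeR adjusted p = 0.356) and 0.65 in Mettl14 KO (-0.04 to 1.35, edgeR adjusted p = 0.475).

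Ifit2, an RNA-binding family member that pairs with other IFIT proteins, had 105.0, 58.0, 93.1, 67.0 and 79.6 CPM in Mettl3 KO replicates 1 to 5 and 96.2, 79.6, 85.7, 149.3 and 64.0 CPM in Mettl14 KO replicates 1 to 5. Control replicates 1 to 5 had 43.1, 100.8, 60.6, 64.9 and 66.7 CPM. The groups overlapped, with control replicate 2 above all but 1 library of each knockout. Ifit2 had the smallest difference of the members in both knockouts, 0.24 (SE 0.22, edgeR adjusted p = 0.413) in Mettl3 KO and 0.46 (SE 0.22, edgeR adjusted p = 0.462) in Mettl14 KO. Its Mettl3 KO value was just below 0 under DESeq2, -0.0046, and without the filter on low counts, -0.0060, where the median over all genes was 0.60 and 0.57.

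Ifit3, which binds and stabilises Ifit1 in human cells and has a near copy, Ifit3b, in the mouse, showed the largest difference of the members in Mettl3 KO tumors. It had 43.3, 22.2, 37.3, 26.5 and 17.5 CPM in Mettl3 KO replicates 1 to 5 and 43.6, 27.8, 19.9, 62.7 and 12.8 CPM in Mettl14 KO replicates 1 to 5. Control replicates 1 to 5 had 9.23, 21.6, 14.0, 18.1 and 17.1 CPM. In Mettl3 KO, 4 of 5 libraries lay above every control, and replicate 5 lay inside the control range. The log2 fold change was 0.84 (SE 0.28, 95% interval 0.24 to 1.44, edgeR adjusted p = 0.0725) in Mettl3 KO and 1.01 (SE 0.35, interval 0.25 to 1.78, edgeR adjusted p = 0.307) in Mettl14 KO.

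Ifit3b was the least abundant IFIT, at 6.72 to 11.1 CPM in Mettl3 KO, 6.07 to 21.3 CPM in Mettl14 KO and 4.16 to 9.54 CPM in control tumors. Its log2 fold change was 0.38 (edgeR adjusted p = 0.305) in Mettl3 KO and 0.82 (edgeR adjusted p = 0.398) in Mettl14 KO. Ifit3 and Ifit3b share sequence: 41.1% of the 75-base windows of annotated Ifit3 exons, and 35.7% of those of Ifit3b, occur identically in the other gene, so reads there cannot be placed. Ifit1 shares 5.19% of its windows with Ifit1bl2, Mx1 shares 1.71% with Mx2, and the other members share none with another gene.

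Of the reads counted on the pair, Ifit3 took 77.0% ± 3.57 in Mettl3 KO, 73.7% ± 3.73 in Mettl14 KO and 71.7% ± 3.42 in control tumors (SD, n = 5). The Mettl3 KO share was 5.27 percentage points above control (two-sided exact permutation p = 0.0714, adjusted over both knockouts 0.143). Mettl3 KO replicate 5 had the lowest share of its group (71.3%), and without it the difference was 6.70 points (unadjusted exact p = 0.0317). Control replicate 3 had the highest share of its group (77.1%), and without it the difference was 6.60 points (unadjusted exact p = 0.0476). Leaving out the lowest knockout share or the highest control share must widen the difference, so these p-values add no support. The Mettl14 KO share was 1.97 points above control (exact p = 0.397). The smallest p that 5 against 5 libraries allow is 0.00794.

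**Figure D2:**
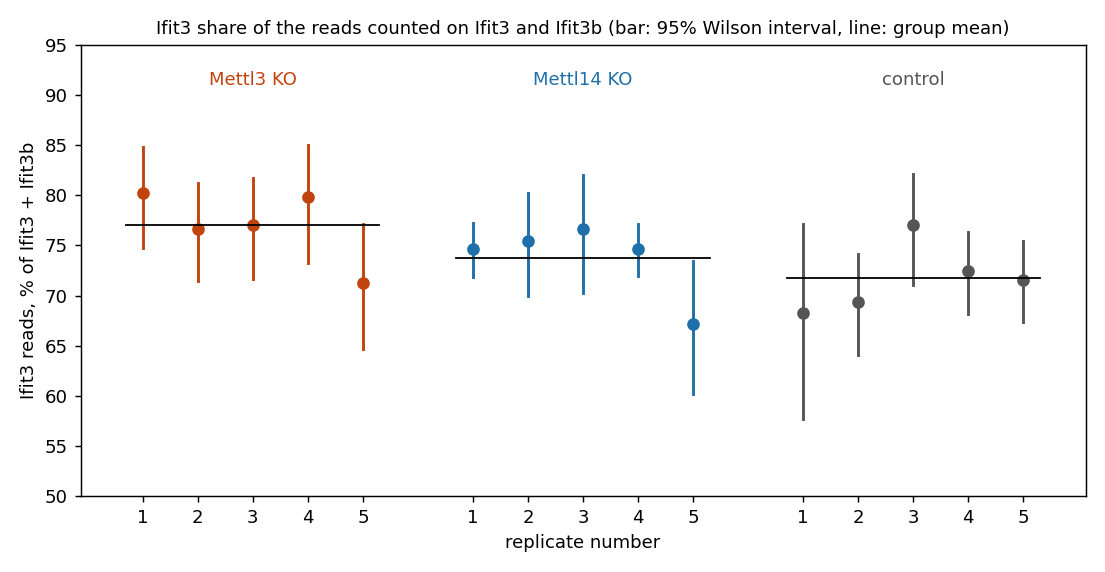
Ifit3 reads as a percentage of Ifit3 plus Ifit3b reads (vertical axis, from 50 to 95%) in each replicate of Mettl3 KO, Mettl14 KO and control tumors. Points are libraries, bars 95% Wilson intervals that cover counting error only, and lines group means, at 77.0%, 73.7% and 71.7%. Mettl14 KO replicate 5, at 67.2%, lies below the other 4 libraries of its group.

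Mx1 and Mx2 encode GTPases that block viral nucleoproteins, Mx1 in the nucleus and Mx2 in the cytoplasm of mouse cells. Most laboratory mouse strains, BALB/c among them, carry defective alleles of Mx1, and RefSeq lists both genes as transcribed pseudogenes while GENCODE lists Mx1 as protein-coding, so their levels here are those of transcripts. Mx2 came nearest to the threshold among the members. It had 14.96, 13.7, 17.8, 14.9 and 17.3 CPM in Mettl3 KO replicates 1 to 5, against 6.69, 12.2, 7.41, 12.0 and 10.4 CPM in control replicates 1 to 5. Every Mettl3 KO library lay above every control, which held for 1 of the 10 members and for 1.8% of all genes tested. Its log2 fold change was 0.65 (SE 0.18, 95% interval 0.25 to 1.05, edgeR adjusted p = 0.0561), with the knockout libraries higher than the control mean in 5 of 5.

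In Mettl14 KO tumors Mx2 had 24.4, 14.6, 12.8, 30.6 and 11.5 CPM in replicates 1 to 5. Replicate 5 lay inside the control range and the others above it. The log2 fold change was 0.90 (SE 0.27, 95% interval 0.32 to 1.48), the smallest edgeR adjusted p of the members in this knockout, at 0.249.

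Mx1 had 39.9, 16.4, 30.7, 22.0 and 19.5 CPM in Mettl3 KO replicates 1 to 5 and 42.1, 22.4, 20.3, 68.7 and 15.6 CPM in Mettl14 KO replicates 1 to 5. Control replicates 1 to 5 had 10.0, 17.5, 10.2, 18.6 and 16.9 CPM. In each knockout 4 of 5 libraries lay above every control, replicate 2 being the exception in Mettl3 KO and replicate 5 in Mettl14 KO. The log2 fold change was 0.77 (SE 0.28, edgeR adjusted p = 0.0876) in Mettl3 KO and 1.16 (SE 0.36, edgeR adjusted p = 0.261) in Mettl14 KO.

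Rsad2 (viperin) is a radical SAM enzyme that turns CTP into a chain terminator of viral RNA polymerases, and Cmpk2 is a mitochondrial nucleotide kinase encoded next to it. Rsad2 had 45.8, 24.9, 46.9, 31.6 and 28.5 CPM in Mettl3 KO replicates 1 to 5 and 71.3, 33.3, 32.9, 134.9 and 33.1 CPM in Mettl14 KO replicates 1 to 5. Control replicates 1 to 5 had 14.96, 33.9, 16.9, 30.0 and 29.5 CPM. Mettl14 KO replicates 1 and 4 stood clear of all other libraries, and the other 3 Mettl14 KO libraries lay at the top of the control range.

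Rsad2 had the largest difference of the members in Mettl14 KO tumors, a log2 difference of 1.23 (SE 0.39, 95% interval 0.39 to 2.08, edgeR adjusted p = 0.270). In Mettl3 KO it was 0.47 (SE 0.26, edgeR adjusted p = 0.216). Cmpk2 ranged from 18.3 to 32.2 CPM in Mettl3 KO, 21.1 to 56.7 CPM in Mettl14 KO and 8.28 to 23.0 CPM in control tumors. Its log2 fold change was 0.42 (edgeR adjusted p = 0.239) in Mettl3 KO and 0.85 (edgeR adjusted p = 0.338) in Mettl14 KO.

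Bst2, which mouse plasmacytoid dendritic cells and plasma cells also carry without stimulation, had 56.2, 64.0, 63.3, 71.2 and 75.5 CPM in Mettl3 KO replicates 1 to 5. Mettl14 KO replicates 1 to 5 had 130.1, 72.0, 66.9, 124.5 and 43.0 CPM, and control replicates 1 to 5 had 19.6, 43.6, 58.9, 63.6 and 58.6 CPM. Mettl3 KO libraries were close together, with a coefficient of variation of 11.3%, against 43.7% in Mettl14 KO and 36.9% in control tumors. The log2 fold change was 0.39 (SE 0.26, edgeR adjusted p = 0.280) in Mettl3 KO and 0.80 (SE 0.32, edgeR adjusted p = 0.377) in Mettl14 KO. Summed markers of plasmacytoid dendritic cells, 6 genes, ranged from 193.1 to 318.9 CPM in Mettl3 KO, 221.9 to 299.2 CPM in Mettl14 KO and 242.3 to 374.4 CPM in control tumors. Tcf4, which other cells share, made up most of that sum and averaged less in both knockouts. Of the 5 genes of the list tested, 3 had log2 fold changes above 0 in each knockout, with medians of 0.77 in Mettl3 KO and 0.24 in Mettl14 KO, and none passed. Siglech did not exceed 22.0 CPM and Ly6d 1.81 CPM in any library. Summed markers of B and plasma cells, 6 genes, ranged from 24.3 to 363.0 CPM in Mettl3 KO, 12.9 to 510.1 CPM in Mettl14 KO and 6.68 to 24.2 CPM in control tumors, so that Mettl3 KO and control did not overlap. Their median log2 fold change was 2.03 in Mettl3 KO and 1.68 in Mettl14 KO, and none passed, with 4.54 in Mettl3 KO for Jchain, the joining chain of antibodies (edgeR adjusted p = 0.0579). The part of these cells in the Bst2 level was not tested.

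Ifi44 is an interferon-induced cytoplasmic protein of less defined biochemical role, and it had the highest mean CPM of the members in each group. It had 165.5, 102.2, 176.2, 124.4 and 130.5 CPM in Mettl3 KO replicates 1 to 5 and 214.2, 146.1, 122.3, 247.0 and 84.1 CPM in Mettl14 KO replicates 1 to 5. Control replicates 1 to 5 had 37.9, 127.3, 74.5, 91.4 and 78.5 CPM. Control replicate 2 lay among the knockout libraries, and the other 4 controls lay below every Mettl3 KO library. The log2 fold change was 0.76 (SE 0.26, 95% interval 0.19 to 1.32, edgeR adjusted p = 0.0816) in Mettl3 KO and 0.96 (SE 0.30, edgeR adjusted p = 0.269) in Mettl14 KO.

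Of the members' relatives, 3 were followed too. Ifi44l, the paralog of Ifi44, averaged 27.8 ± 8.36 CPM in Mettl3 KO and 30.6 ± 16.8 CPM in Mettl14 KO tumors, against 12.1 ± 4.21 CPM in control tumors (SD, n = 5). Every Mettl3 KO library lay above every control, and its log2 difference was 1.15 (SE 0.28, edgeR adjusted p = 0.0524). In Mettl14 KO its log2 fold change was 1.29 (SE 0.36, edgeR adjusted p = 0.233). Ifit1bl1 and Ifit1bl2 did not exceed 7.53 CPM and 5.60 CPM in any library, and neither passed the test in either knockout.

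Across all genes, the Mettl3 KO comparison called 266 of 21427 genes (1.24%), 87 of them higher (0.406%), and 0 of the 10 members. At an unadjusted p under 0.05, 4 members were higher (Mx2, Ifit3, Ifi44 and Mx1), against 5.26% of all genes. Genes of like abundance had a median log2 fold change of -0.24 to -0.54 for 9 members and 0.15 for Ifit3b, so that every member stood above its own abundance class, by 0.24 (Ifit3b) to 1.29 (Ifi44). The median of all genes in this comparison moved with the scaling, -0.14 with TMM, -0.05 with RLE and 0.02 with library totals, and the 10 members stayed above 0 under all 3 scalings. Under DESeq2 and without the filter on low counts the order turned, with a members' median of 0.20 in both, below the 0.60 and 0.57 of all genes. Without control replicate 1, 5 members passed, Mx2, Ifi44, Ifit3, Mx1 and Cmpk2 (edgeR adjusted p 0.00359 to 0.0475). In that fit 36.2% of all genes were called higher and 51.6% in either direction.

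The Mettl14 KO comparison called 0 of 21555 genes (0%) by edgeR, 2444 at an unadjusted p under 0.05 and 271 by DESeq2. At an unadjusted p under 0.05, 8 members were higher, against 4.74% of all genes higher. The other 2 were Ifit1 and Ifit2. Without Mettl14 KO replicate 4 the members' log2 fold changes lay between 0.26 and 0.78 and their median was 0.67. No member had every Mettl14 KO library above every control, which 0.677% of all genes had.

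**Figure D3:**
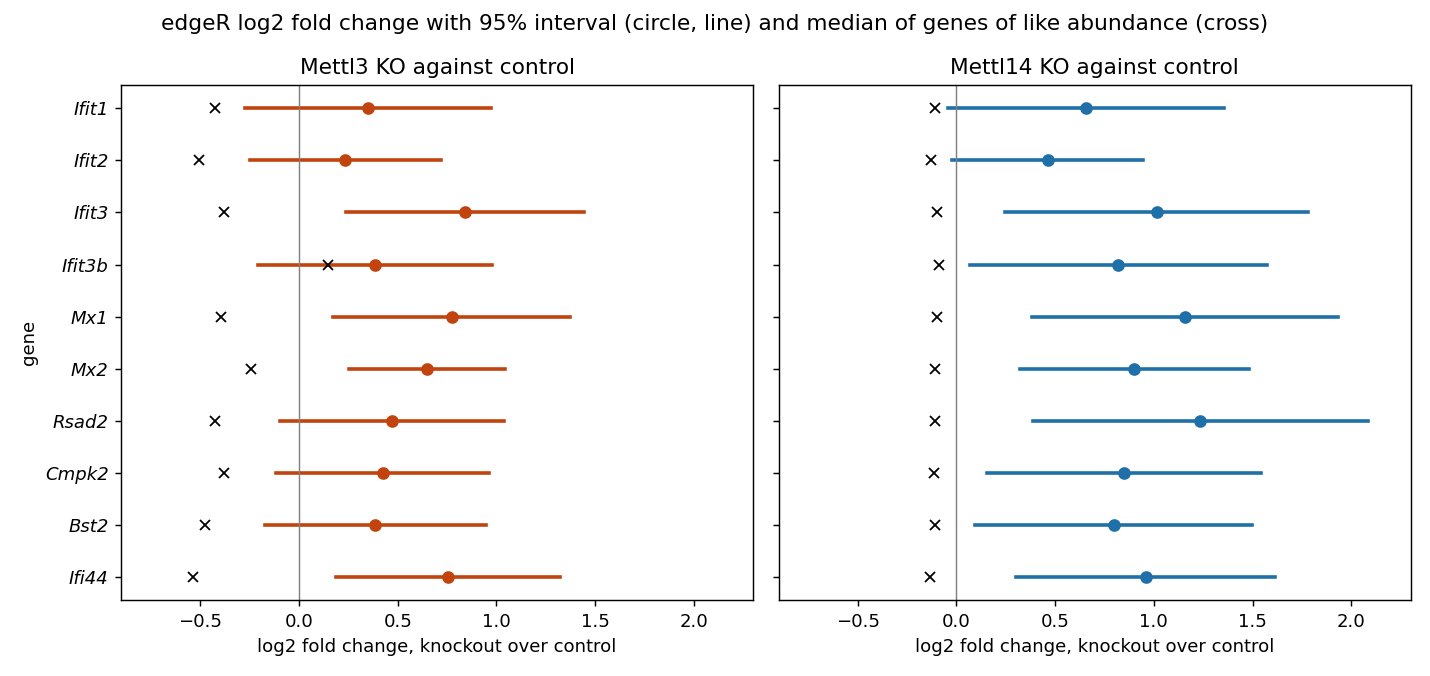
log2 fold change against control (horizontal axis) of each member in Mettl3 KO (left) and Mettl14 KO tumors (right), from edgeR with its 95% interval. Crosses are the median of genes of like abundance. All 20 circles lie above 0, from 0.24 for Ifit2 in Mettl3 KO to 1.23 for Rsad2 in Mettl14 KO, and none passed the adjusted test.

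The spread within Mettl14 KO followed the same libraries for every member. Replicates 1 and 4 were the top pair of the group for 10 of 10 members and the top pair of all 15 libraries for 9. The summed level of the 10 genes was 546.4, 351.0, 557.2, 423.7 and 432.2 CPM in Mettl3 KO replicates 1 to 5, and 741.6, 462.8, 421.7, 969.4 and 314.9 CPM in Mettl14 KO replicates 1 to 5. In control replicates 1 to 5 it was 165.9, 432.0, 286.3, 358.1 and 335.9 CPM. The highest library was 1.59 times the lowest in Mettl3 KO, 3.08 times in Mettl14 KO and 2.60 times in control tumors.

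Markers of other cells moved with some of these libraries and not with others. Fibroblast markers (6 genes) were highest in the same pair, at 6053 CPM in Mettl14 KO replicate 1 and 7427 CPM in replicate 4, against 1232 to 4160 CPM in the other 13 libraries. Mettl14 KO replicate 4 also had the highest summed T cell markers of the 15 libraries (8 genes, 268.4 CPM) and NK cell markers (6 genes, 295.2 CPM). The same held for its B and plasma cell (6 genes, 510.1 CPM), macrophage (8 genes, 2608 CPM) and neutrophil markers (7 genes, 244.4 CPM). Its conventional dendritic cell sum of 58.4 CPM lay below the 74.1 CPM of Mettl3 KO replicate 1. Mettl14 KO replicate 1 had the second highest NK cell sum, 189.3 CPM. Most of the NK cell sum was Prf1 and Gzmb, genes of cytotoxic lymphocytes. Ncr1, Klrb1c, Klre1 and Eomes did not exceed 14.5 CPM in any library. The macrophage sum of Mettl14 KO replicate 1, 1135 CPM, lay below Mettl14 KO replicate 3 and 4 of the 5 controls. Its T cell sum of 108.7 CPM was close to the 105.4 CPM of replicate 2. T cell markers ranged from 55.6 to 173.2 CPM in Mettl3 KO, 31.3 to 268.4 CPM in Mettl14 KO and 12.2 to 46.2 CPM in control tumors. All 8 T cell genes were detected in every library, and none passed the test in either knockout. Their median log2 fold change was 1.48 in Mettl3 KO, where the sums did not overlap control, and 1.54 in Mettl14 KO. At an unadjusted edgeR p under 0.05, 8 were higher in Mettl3 KO, against 5.26% of all genes. In Mettl14 KO 6 were, against 4.74%. Ifng itself averaged 2.87 ± 1.98 CPM in Mettl3 KO and 2.43 ± 2.05 CPM in Mettl14 KO tumors, against 0.875 ± 0.676 CPM in control tumors (SD, n = 5). It rested on 2 to 74 reads per library and did not pass the filter on low counts in Mettl3 KO against control. In Mettl14 KO its log2 fold change was 1.44 (edgeR adjusted p = 0.503). The part of these cells in the members' levels was not tested. Control replicate 1 was the lowest library for 9 members. Of the controls it had the highest T cell (46.2 CPM), B and plasma cell (24.2 CPM) and conventional dendritic cell sums (45.5 CPM). Its macrophage (697.0 CPM), fibroblast (1360 CPM), endothelial (142.3 CPM), plasmacytoid dendritic cell (242.3 CPM) and carcinoma sums (179.2 CPM) were the lowest of the controls. Its NK cell and neutrophil sums lay between those of other controls. Control replicate 1 also had the highest share of reads outside genes, and the part of that share was not tested either.

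As a sum, carcinoma markers moved the other way. Their sum, 6 genes, ranged from 54.4 to 113.7 CPM in Mettl3 KO, 79.1 to 168.7 CPM in Mettl14 KO and 179.2 to 243.9 CPM in control tumors, with neither knockout overlapping control. Most of it was Krt20, an intestinal keratin, which averaged 57.0 ± 27.1 CPM in Mettl3 KO and 102.6 ± 34.8 CPM in Mettl14 KO tumors, against 186.0 ± 24.5 CPM in control tumors (SD, n = 5). Krt20 fell in Mettl3 KO (log2 fold change -1.76, edgeR adjusted p = 0.0217) and had -0.89 in Mettl14 KO (edgeR adjusted p = 0.196). The Mettl3 KO call was lost with library totals, with the share outside genes as a covariate, and when Mettl3 KO replicate 1, 2 or 3 or any control other than replicate 1 was left out. Gene by gene the list was mixed. In Mettl3 KO, 3 of the 5 genes tested had log2 fold changes above 0, with a median of 0.11. In Mettl14 KO, 2 of 6 did, with a median of -0.37. Krt8 and Krt19 did not exceed 4.73 CPM in any library. The part of the carcinoma cells in the members' levels was not tested.

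**Figure D4:**
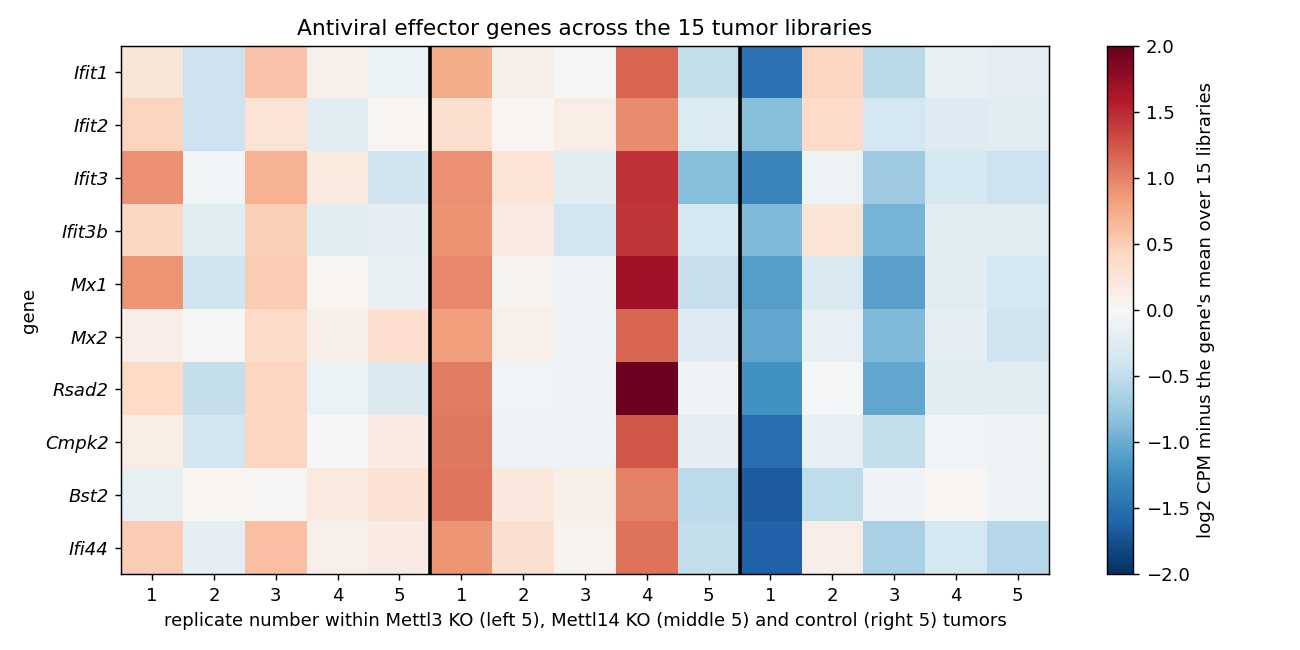
Each row is a member and each column a library (Mettl3 KO, Mettl14 KO and control, replicates 1 to 5). Colour is log2 CPM minus the gene's mean over the 15 libraries. Mettl14 KO replicates 1 and 4 lie above the mean in every row, and control replicate 1 below it.

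Between the knockouts, the members averaged less in Mettl3 KO than in Mettl14 KO tumors, and none of these differences passed. The log2 fold changes of Mettl3 KO over Mettl14 KO lay between -0.78 and -0.19, tested in a fit of all 15 libraries that called 0 of 24566 genes (0%), 3152 at an unadjusted p under 0.05 and 59 by DESeq2, and in which 49.3% of all genes lay above 0. Rsad2 had the largest, -0.78 (95% interval -1.58 to 0.01, edgeR adjusted p = 0.349), and Ifit3 the smallest, -0.19 (-0.95 to 0.57, edgeR adjusted p = 0.717). Genes of like abundance had median log2 fold changes of -0.38 to -0.08 in this fit. Against these the members lay between -0.46 (Rsad2) and 0.17 (Ifi44), with a median of -0.05. Without Mettl14 KO replicate 4, 6 of the 10 members had log2 fold changes above 0, up to 0.27 for Ifit3.

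Per kilobase of annotated exon, Bst2 was the most abundant member in each group, at 73.1 ± 8.29 CPM per kb in Mettl3 KO, 96.7 ± 42.3 in Mettl14 KO and 54.1 ± 19.9 in control tumors (SD, n = 5). In control tumors it was followed by Ifit2 (17.1 ± 5.33 CPM per kb), Ifi44 (13.4 ± 5.26), Ifit1 (10.3 ± 4.46) and Ifit3 (9.17 ± 2.67). Rsad2 (5.78 ± 1.97 CPM per kb), Cmpk2 (4.45 ± 1.49), Mx1 (3.87 ± 1.11), Ifit3b (3.17 ± 1.11) and Mx2 (2.70 ± 0.712) were lower. Bst2 and Ifit2 lay more than their SDs apart, and every later pair of neighbours in this order overlapped within 1 SD. In both knockout groups Ifi44 stood before Ifit2, Ifit3 before Ifit1 and Mx1 before Cmpk2, again within 1 SD. In Mettl3 KO Mx2 (4.35 CPM per kb) also stood before Ifit3b (4.23), within 1 SD. The full exon length was used for every gene. Reads cannot be placed in 41.1% of Ifit3 and 35.7% of Ifit3b windows, so these genes may stand too low in the order.

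Within groups the members varied together. After each group's mean was subtracted, the 45 pairs of members had Pearson correlations of log2 CPM from 0.55 to 0.98 over the 15 libraries, with a median of 0.87. Without the 2 libraries farthest from the median, Mettl14 KO replicate 4 and control replicate 1, the median was 0.84. Ifit1 and Ifi44, on different chromosomes, had the highest value (0.98), and Ifit2 and Bst2 the lowest (0.55, or 0.26 without those 2 libraries). Points share library, depth and share of reads outside genes, so these are descriptions.

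Among 17021 other protein-coding genes with a mean of at least 1 CPM, the 8 whose deviations most resembled those of the members were Atg4a (r = 0.94), Gzmb (0.93), Slfn8 (0.92), Ifi44l (0.92), Isg15 (0.91), Parp9 (0.91), Milr1 (0.91) and Rtp4 (0.90). Without the same 2 libraries the values lay between 0.82 and 0.90. Slfn8, Ifi44l, Isg15, Parp9 and Rtp4 are known interferon response genes, Atg4a encodes an autophagy protease, Milr1 a mast cell receptor and Gzmb the protease granzyme B of cytotoxic lymphocytes. Gzmb had 42.2, 24.9, 28.7, 28.8 and 19.6 CPM in Mettl3 KO replicates 1 to 5 and 59.7, 24.8, 26.8, 95.5 and 17.6 CPM in Mettl14 KO replicates 1 to 5. Control replicates 1 to 5 had 14.6, 42.1, 15.7, 30.7 and 35.7 CPM, so that Mettl14 KO replicates 1 and 4 were again the highest.

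The rest of the pathway was followed from lists chosen with earlier results of these data known. Of 8 type I and III interferon genes, including Ifnb1, Ifna4 and Ifnl2, none passed the filter on low counts in any comparison, and none exceeded 1.68 CPM in any library. Their sum ranged from 2.01 to 5.98 CPM in Mettl3 KO, 0.822 to 4.52 CPM in Mettl14 KO and 0.201 to 4.30 CPM in control tumors. The 4.30 CPM was control replicate 1, and the other controls had 0.201 to 1.06 CPM. Control replicate 1 and Mettl3 KO replicate 4, at 5.98 CPM, had the highest shares of reads outside genes (78.6% and 78.0%). The part of that share was not tested. Among the genes for the receptor, its kinases and ISGF3, Stat2, an ISGF3 subunit, rose in Mettl3 KO. It averaged 115.7 ± 14.8 CPM in Mettl3 KO tumors, against 56.8 ± 9.24 CPM in control tumors (log2 fold change 0.98, edgeR adjusted p = 0.0216), and it did not pass when Mettl3 KO replicate 2, Mettl3 KO replicate 5 or control replicate 5 was left out, in the fit of all 15 libraries, or without the filter on low counts. Irf9, the DNA-binding subunit of ISGF3, had a log2 fold change of 0.62 (edgeR adjusted p = 0.0529), and the receptor chain Ifnar1 one of -0.32 (edgeR adjusted p = 0.233).

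Of 10 nucleic acid sensing genes, 1 rose in Mettl3 KO, Zbp1, a sensor of Z-form nucleic acid, at 90.5 ± 17.6 CPM in Mettl3 KO tumors, against 26.6 ± 8.43 CPM in control tumors (1.74, edgeR adjusted p = 0.0108). Zbp1 did not pass without the filter on low counts. Irf7 (1.15), Dhx58 (0.89) and the RNA sensor Ifih1 (0.66) had edgeR adjusted p-values of 0.0524 to 0.0526, and Irf3 had a log2 fold change of -0.64 (edgeR adjusted p = 0.0692). Of 25 other type I interferon response genes, 5 rose: Oasl2, Rtp4, Xaf1, Parp14 and Herc6, with log2 fold changes of 0.88 to 1.05. The median of the 25 was 0.41, near the members' 0.45. Of 20 interferon-gamma response genes, 15 rose, with a list median of 1.90, where 0.406% of all genes were called higher. Those 15 were Irf1, Gbp2, Gbp3, Gbp4, Gbp5, Gbp6, Gbp7, Cxcl9, Ciita, Ido1, Igtp, Irgm1, Irgm2, Iigp1 and Ubd, which encode a transcription factor, host-defence GTPases, a chemokine, the master regulator of MHC class II and others. How many reads the Gbp genes, a family of related sequences, share was not measured.

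Counts of these lists in Mettl3 KO moved with single libraries. The 15 interferon-gamma genes became 8 without control replicate 2 and 19 without control replicate 1, and the 5 other type I genes became 0 without Mettl3 KO replicate 2 and 15 without control replicate 1, the fit in which 36.2% of all genes were called higher. In Mettl14 KO none of the listed genes passed in the main edgeR fit. Medians there were 0.58 for sensing, 0.66 for the other type I genes and 2.04 for the interferon-gamma genes, beside 0.88 for the members. Without Mettl14 KO replicate 5, 15 of the 20 interferon-gamma genes and 5 of the 25 other type I genes passed, where 0.614% of all genes were called higher. Without control replicate 1 the counts were 11 and 5, where 2.86% were. No member passed in either of these fits, whose adjusted p-values for members were at least 0.107 and 0.0698. In the edgeR fit of all 15 libraries, 11 and 3 passed in Mettl14 KO, where 0.195% of all genes were called higher. In Mettl3 KO that fit called 8 and 0, where 0.0692% were. Without the filter on low counts Mettl14 KO had 10 and 0 (0.058%), and with the replicate block 5 and 0 (0.0557%). DESeq2 called 16 and 5 in Mettl14 KO (1.26%).

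**Figure D5:**
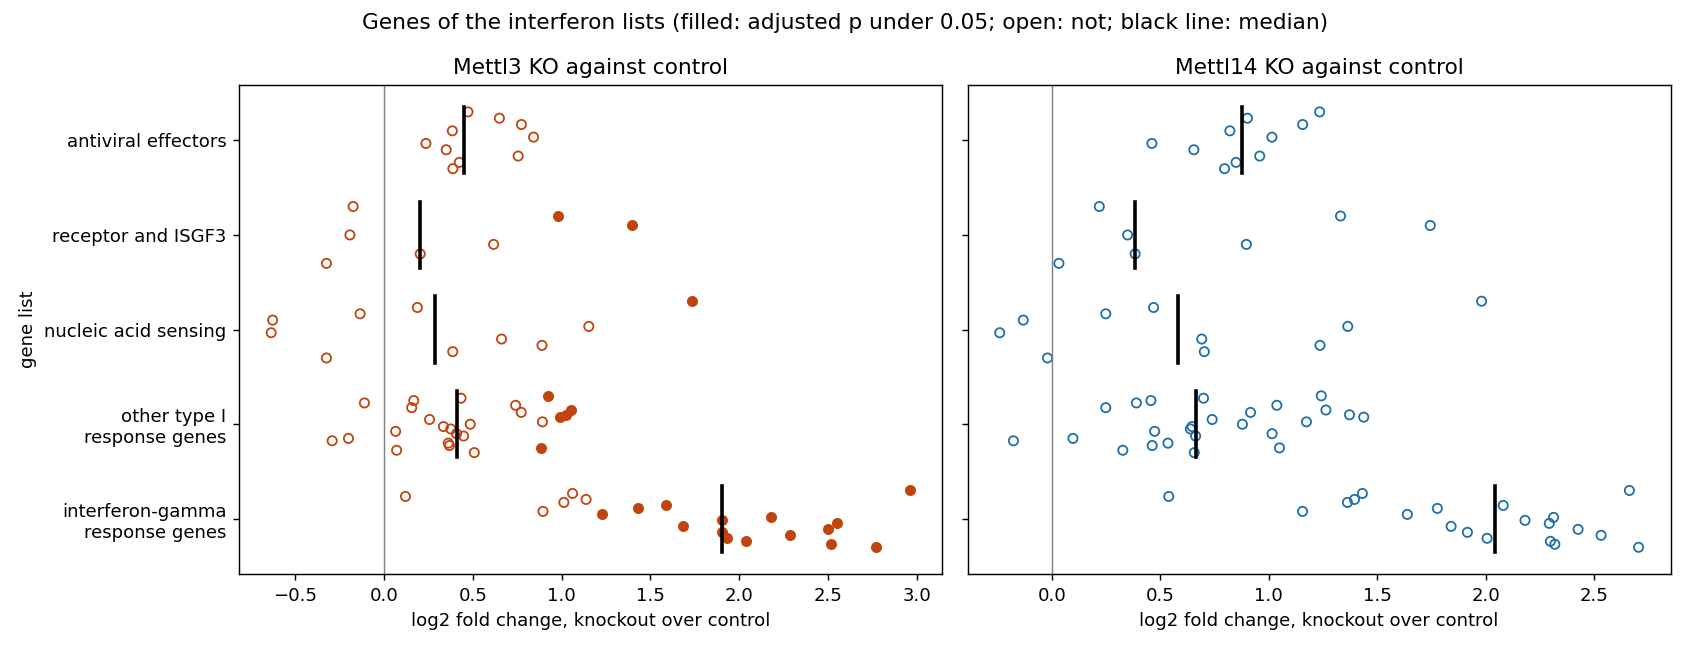
log2 fold change against control (horizontal axis) of each tested gene in 5 lists (vertical axis) in Mettl3 KO (left) and Mettl14 KO tumors (right). Filled points passed the edgeR test, open points did not, and black lines are medians. In Mettl3 KO the members' median is 0.45 with 0 filled points, and the interferon-gamma list's is 1.90 with 15.

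The authors' deposited table of Mettl3 KO against control lists 3 members with an adjusted p under 0.05, Ifi44 (log2 fold change 0.90, adjusted p = 0.0258), Mx2 (0.80, 0.0311) and Ifit3 (0.89, 0.0338), beside 3.4% of the genes it tested that were higher. The authors' deposited table of Mettl14 KO lists no member under 0.05, with Rsad2 nearest (1.27, adjusted p = 0.0525), beside 2.03% of genes higher. The authors' deposited tables give Ifit3 a mean 1.54 and 1.5 times, and Ifit3b 2.62 and 2.45 times, that of the deposited counts on the same scale, and the other 8 members 0.86 to 1.05 times. Of genes with a deposited mean of at least 50, 11.2% and 12.1% exceeded 1.5 times.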

How the data were processed

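Per the labels' protocols, fragmented tumor RNA was sequenced as single reads of 75 bases; polyadenylated RNA is given as the molecule. Per the submitters' processing notes, cutadapt 1.18, HISAT2 2.1.0, HTSeq 0.11.2 and DESeq2 were used with build mm10. For annotation release and strand setting, the sources used here give nothing. Raw counts of reads by Ensembl ID were deposited in 1 table for each knockout, with the same 5 control columns in both, used once. Lines for unassigned reads, 56.8% to 86.2% of a library's reads, were left out. In the authors' deposited tables, log2 fold changes, a mean signal of scaled counts, p-values and a test score carry the column names DESeq2 writes, per the file headers.

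One gene of the pathway lists is not reported here. The 10 members and all lists were chosen with earlier results of these data known. Of 54752 gene IDs, 54723 matched a symbol. Counts were tested with edgeR 4.0.16 (robust quasi-likelihood, filterByExpr minimum 10, TMM, Benjamini-Hochberg, 0.05) in R 4.3.3, each knockout with the controls, and the knockouts against each other in a fit of all 15 libraries. The procedure was tested on simulated counts drawn with the same dispersion for every gene. That does not show how it behaves with the spread of these libraries. Genes of like abundance are the same of 50 abundance bins. Likeness was the Pearson correlation of log2(CPM + 1) with the members' standardised mean after subtraction of group means, and the 8 highest genes are named. Of the lists, genes that passed and up to 4 others by smallest p could be named. All 30 replicate pairs differed by more than sampling noise (chi-square per gene at least 11.5). Alternatives were RLE scaling, library totals, other filters, DESeq2 1.42.0, all libraries, a replicate block, the share outside genes as a covariate, and leaving out each replicate. The counts behind a member ranged from 27 to 3649 reads per library.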

Additional observations from a re-analysis of the deposited data

Results flagged for a closer look

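The share of Ifit3 among Ifit3 plus Ifit3b reads in Mettl14 KO replicate 5 was 67.2% (95% Wilson interval 60.2% to 73.5%), against 74.6% to 76.7% in the other 4 Mettl14 KO libraries. Its gap to the nearest of them was 0.783 of the group's range, above the Dixon critical value of 0.71 for 5 libraries. It was the 1 value past that limit among 33 groups of 5 libraries tested, of the members and of this share, and chance flags about 1 in 20 such groups. The share rests on 127 Ifit3 and 62 Ifit3b reads, and 41.1% of Ifit3 windows are shared with Ifit3b. Its cause was not tested.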

How the results depend on the processing

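Of 180 log2 fold changes of members in Mettl3 KO against control under alternatives, 172 kept their direction and their side of the threshold, 6 newly passed and 2 reversed. The reversals were Ifit2 without the filter on low counts (-0.00602) and under DESeq2 (-0.00458). All 180 in Mettl14 KO kept both, and 11 of 230 in Mettl3 KO against Mettl14 KO reversed. With the share outside genes as a covariate these were Ifit3 (0.0116), Bst2 (0.0548) and Ifi44 (0.0907). Without Mettl14 KO replicate 1 they were Ifit3 (0.0607) and Ifi44 (0.0242). Without Mettl14 KO replicate 4 they were Ifit1 (0.0494), Ifit2 (0.0720), Ifit3 (0.272), Mx1 (0.126), Mx2 (0.0875) and Ifi44 (0.0866), and the lowest values leaving out 1 library were -0.456, -0.325, -0.379, -0.592, -0.408 and -0.348 for those 6 genes. The number of genes called in Mettl3 KO, 266, was 100 with RLE scaling, 122 with library totals, 62 without the filter, 81 with a mean of at least 1 CPM, 3379 under DESeq2, 42 with all 15 libraries, 55 with the covariate, and 35 to 11625 leaving out 1 library. Of those calls, 87 of 266 were higher with TMM, 72 of 100 with RLE, 106 of 122 with library totals and 184 of 3379 with DESeq2. In Mettl14 KO, with 0, it was 47 without the filter, 271 under DESeq2, 50 with all 15 libraries, and 0 to 1054 leaving out 1 library, the last without control replicate 1. Between knockouts, with 0, it was 59 under DESeq2 and 0 to 1 leaving out 1 library. Members called numbered 0 to 5 leaving out 1 library in Mettl3 KO and 0 in the other comparisons. The Ifit3 share difference ranged from 4.39 to 6.70 points leaving out 1 library in Mettl3 KO and from 1.09 to 3.60 in Mettl14 KO. Interferon-gamma genes called in Mettl3 KO numbered 8 with all 15 libraries and 9 without the filter or with the covariate, and other type I genes 0 with all 15 libraries or without the filter, fits added after seeing the data. The causes of these moves were not tested.

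Same-numbered libraries of different groups did not regularly deviate together (correlation -0.74 to 0.61, and the own number was the best match in 2 of 30). Mettl3 KO and control did at replicate 1 (0.61) and replicate 5 (0.57). The labels give no pairing. These correlations also carry differences in depth and in the share outside genes, so they cannot exclude one. The main fits used no pairing. With the replicate block, 6002 genes were called in Mettl3 KO, 1891 of them higher, 8.83% of genes tested, with 1 member, Mx2 (0.66, edgeR adjusted p = 0.0417), 14 in Mettl14 KO, and 0 between knockouts. At 4354273 gene reads in the shallowest library, the 8 interferon genes stayed under the filter on low counts.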
